A study of Mus musculus with 8 samples.

Results

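The transcription factors that turn a precursor cell into a fat cell were followed through the liver and fat transcriptomes of mice carrying a deletion of Crtc1. The 8 genes were chosen by symbol from the 19348 genes of the count table and are Pparg, Cebpa, Cebpb, Cebpd, Klf15, Ebf1, Ebf2 and Zfp423, all of which were found there, each on 1 row. RNA came from a piece of liver or of epididymal white adipose tissue (eWAT), the depot attached to the epididymis, of male C57BL/6 mice aged 12 weeks on a normal diet that had been fasted for 16 h. The mice were labelled Crtc1-/-, a whole-body knockout made with CRISPR/Cas9 guides, or Crtc1+/+, their wild-type controls. With 2 libraries per tissue and genotype there were 8 libraries, and the labels do not tie a liver library to an eWAT library of 1 mouse. The study's methods describe both tissues as taken from the selected mice, so liver and eWAT libraries may share animals, which the tests between tissues did not take into account. CRTC1 is a co-activator of CREB, the transcription factor that answers cyclic AMP, and the study asked how its loss changes the transcriptome of fat and liver.

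Adipocyte differentiation runs through a relay of transcription factors. C/EBPβ and C/EBPδ are induced early by hormonal signals and switch on PPARγ and C/EBPα, which then sustain each other and drive the lipid storage genes of the mature adipocyte. PPARγ is a nuclear receptor that binds DNA with RXR and responds to fatty acids and thiazolidinediones. KLF15 acts downstream of the early C/EBPs in adipocytes and also controls gluconeogenic and amino acid genes in liver. EBF1 and EBF2 and the zinc finger protein ZFP423 mark the commitment of precursor cells. C/EBPα and C/EBPβ are also abundant factors of hepatocytes, so these genes are not markers of fat alone.

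Library totals lay between 16560085 and 19721481 estimated counts. Levels of single genes are given as CPM, counts scaled to the size of the library and then by TMM within a tissue, whereas summed levels of marker lists are CPM by library size alone. Crtc1 itself did not fall in mice of the knockout label, whose libraries are called knockout-labelled here. In eWAT it stood at 58.5 and 33.6 CPM in the knockout-labelled ones and at 32.5 and 33.7 in the wild-type ones, and in liver at 22.1 and 18.0 against 11.7 and 9.86. A count per gene does not separate the targeted exons from the rest, so it does not check the deletion, and the genotype of a library, wild type (Crtc1+/+) or knockout-labelled (Crtc1-/-), is given by its label alone. The tissue labels were compared with marker genes. The summed level of 16 epididymis genes, led by Gpx5, was 77788 and 90968 CPM in the eWAT wild-type libraries and 23.4 and 11.7 CPM in the knockout-labelled ones, where 7 and 5 of the 16 had no count. The sum of 10 adipocyte markers was 1665 and 2377 CPM in wild-type eWAT against 23578 and 11982 in knockout-labelled eWAT, with none at 0. The sum of 12 hepatocyte markers, led by Alb, reached 97840 CPM in the second eWAT knockout-labelled library, against 718 to 5860 in the other 3 eWAT libraries and 180011 to 223932 in liver. The eWAT libraries of the genotypes therefore differed in the markers of the cells they held, and each eWAT difference between genotypes is given beside these values.

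**Figure D1:**
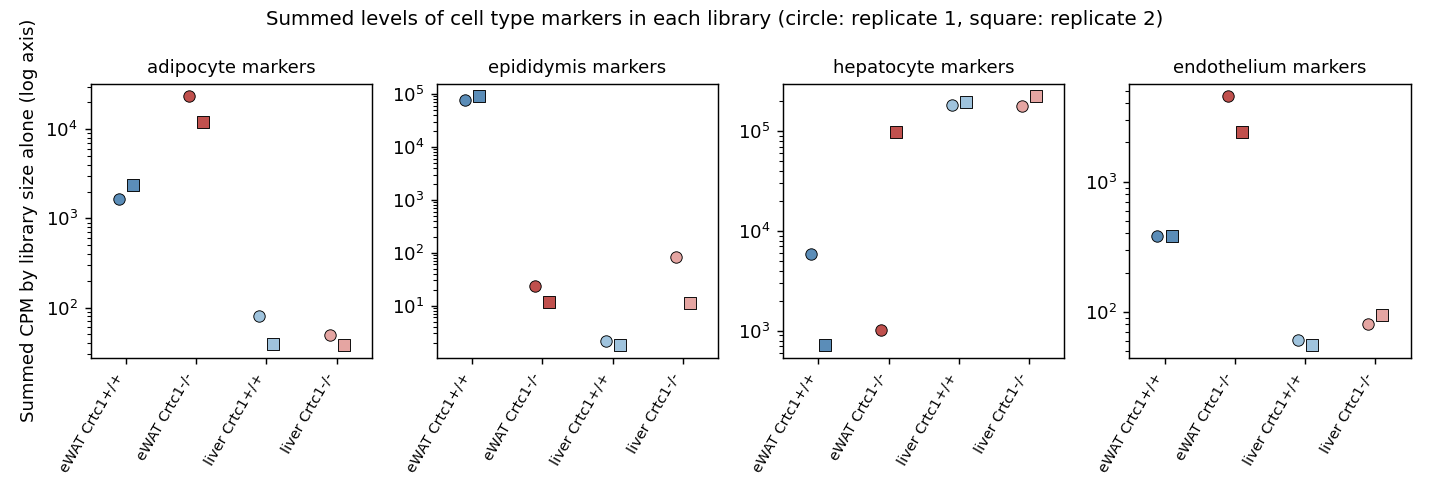
Summed CPM, by library size alone, of adipocyte, epididymis, hepatocyte and endothelium markers (log axes) in the 8 libraries, with 1 point per library. The eWAT wild-type libraries hold 77788 and 90968 CPM of epididymis markers, and the second eWAT knockout-labelled library holds 97840 CPM of hepatocyte markers.

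In the mouse assembly GRCm38.p6, the RefSeq annotation placed Pparg on the plus strand of chromosome 6 (chr6:115360879-115490404) and Klf15 on the same strand further upstream (chr6:90461043-90491803). Cebpa lay on chromosome 7 (chr7:35119293-35121928), Cebpb on chromosome 2 (chr2:167688915-167690432) and Cebpd on chromosome 16 (chr16:15887286-15889545), all on the plus strand. Ebf1 lay on chromosome 11 (chr11:44618100-45008096), Ebf2 on chromosome 14 (chr14:67233292-67430952), both on the plus strand, and Zfp423 on the minus strand of chromosome 8 (chr8:87661810-87962053). The C/EBP genes were compact, with 1 exon in Cebpb and in Cebpd, whereas Ebf1 and Ebf2 had transcripts of 16 and 17 exons.

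Because CRTC1 works through CREB and the members regulate each other, the 250 bases before each RefSeq start were searched for the sites of these factors. Promoter sequence was at hand for 6 of the 8 genes with 10 starts in all, and Cebpd and Ebf2 were not searched. The full CREB site TGACGTCA, the cAMP response element, was in none of the 10 promoters and in 1.55% of 32851 promoters of all genes. Its shorter form TGACG, searched on both strands, was in the promoters of Cebpb and Klf15 and in 17.8% of all promoters. The C/EBP site TTGCGNAA, searched on both strands, was in none of the 10 and in 0.67% of all promoters. The looser form TTGCNNAA, which includes it, was found before the third start of Pparg and the first of Zfp423, and in 9.56% of all promoters. The promoters of Cebpa and Ebf1 held none of these 4 motifs. These matches are letters in a window, not sites of binding. The windows below come from RefSeq (GRCm38.p6, plus strand) and show the matches closest to these factors' roles, the shorter form of the CREB site and the looser C/EBP site before Pparg, with the match in capitals:
Cebpb, chr2:167688715-167688759: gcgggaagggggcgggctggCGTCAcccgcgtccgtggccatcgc
Cebpb, chr2:167688842-167688886: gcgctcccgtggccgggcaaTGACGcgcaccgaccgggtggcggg
Klf15, chr6:90462478-90462522: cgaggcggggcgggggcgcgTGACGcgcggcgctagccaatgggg
Pparg, chr6:115421831-115421878: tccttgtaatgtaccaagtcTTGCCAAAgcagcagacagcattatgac
Pparg, chr6:115422030-115422065: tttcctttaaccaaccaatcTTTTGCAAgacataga
The first Cebpb window holds the short site on the opposite strand, 180 to 176 bases before the start, and the second holds it on the strand of the gene, 53 to 49 bases before it. Both Cebpb windows lay inside the annotated span of Tmem189 and touched no exon. A further match in Cebpb, not shown, lay 7 to 3 bases before the start on the strand of the gene. In Klf15 the short site shown was 78 to 74 bases before the start, and another lay on the opposite strand 6 to 2 bases before it. Both Pparg windows lay in an intron of the longer Pparg transcripts, with the matches 215 to 208 and 16 to 9 bases before the third start.

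Levels were compared between genes as deposited FPKM, which divide the fragments of a gene by its transcript length. Cebpa led in 3 of the 4 groups, at 290.8 ± 64.7 FPKM (SD, n = 2) in knockout-labelled eWAT, 193.7 ± 40.8 in knockout-labelled liver and 176.8 ± 39.7 in wild-type liver. In wild-type eWAT it stood at 42.0 FPKM in both libraries, just under Cebpb at 45.2 ± 4.1. Pparg was second in knockout-labelled eWAT, at 121.7 ± 42.1 FPKM, and in wild-type eWAT it was at 13.1 ± 4.4, where its range overlapped that of its neighbour Klf15 (13.8 ± 2.2). The next neighbours in that group, Pparg and Cebpd (9.78 ± 0.94), overlapped too. In liver Pparg was low, at 5.24 ± 1.16 and 3.27 ± 0.36 FPKM, and did not stand apart from Cebpd in the knockout-labelled libraries. The commitment factors were the lowest everywhere. In knockout-labelled eWAT Ebf1 stood at 12.9 ± 1.1 FPKM and Zfp423 at 9.36 ± 5.48, which overlapped, and Ebf2 at 1.22 ± 0.28. In liver these 3 genes did not exceed 0.11 FPKM in any library.

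**Figure D2:**
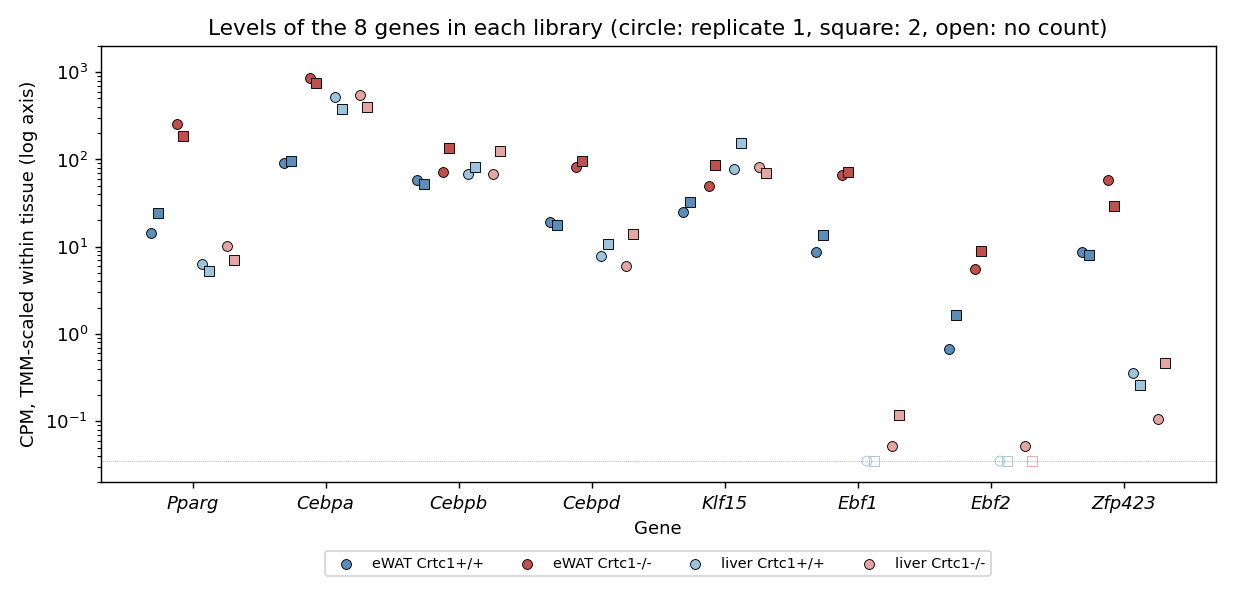
CPM of each gene (log axis, TMM-scaled within a tissue) in each library, coloured by tissue and labelled genotype. In eWAT the knockout-labelled libraries lie above the wild-type ones for all 8 genes, with the widest gaps for Pparg and Cebpa, and Ebf1, Ebf2 and Zfp423 are near or at 0 in liver.

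In eWAT, 5 of the 8 factors were called higher in the knockout-labelled libraries and none lower, by edgeR's quasi-likelihood test with an adjusted p (Benjamini-Hochberg) under 0.05. Among these 5, Pparg and Cebpa, the pair that maintains the mature adipocyte, moved most, by 11.45 and 8.55 times, followed by Ebf1, Zfp423 and Cebpd. Of all 15391 genes tested in eWAT 6.65% were called higher and 12.2% in either direction. The median log2 fold change was 2.50 over the 8 genes and -0.05 over all genes. For each of the 8 genes both knockout-labelled libraries lay above both labelled Crtc1+/+, as did 31.3% of all genes tested. By the study's own rule, which asks for an unadjusted p under 0.01 and more than 1 log2 unit of change, the same 5 genes passed, against 8.37% of all genes in that direction. With the replicate number as a block no gene at all was called in eWAT (smallest edgeR adjusted p = 0.0543). There 7 of the 8 had an unadjusted p under 0.05, as did 5418 of all genes.

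Pparg was measured at 253.9 and 187.8 CPM in the knockout-labelled libraries and at 14.5 and 24.1 CPM in the wild-type ones. The groups were far apart, and the log2 fold change was 3.52 with a standard error (SE) of 0.41 (edgeR adjusted p = 0.0184). Cebpa, its partner, was at 851.8 and 750.1 CPM against 92.2 and 95.2. Both pairs of libraries were close, and the log2 fold change was 3.10 (SE 0.35, edgeR adjusted p = 0.0178). Cebpa is also a liver factor, lower in wild-type eWAT than in wild-type liver (log2 fold change -3.56). The part of the hepatocyte markers in the second knockout-labelled library in its value there was not tested.

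The early C/EBPs differed from each other. Cebpd was at 83.0 and 96.5 CPM against 19.4 and 17.5 (log2 fold change 2.28, SE 0.28, edgeR adjusted p = 0.0194). Cebpb, which many cell types induce under stress and inflammation, was at 72.7 and 136.4 CPM against 58.1 and 52.7. The 2 knockout-labelled libraries were themselves nearly as far apart as the groups, and the log2 fold change of 0.92 (SE 0.38) did not pass (edgeR adjusted p = 0.172). Klf15 was at 50.2 and 87.5 CPM against 24.8 and 33.0 (log2 fold change 1.25, SE 0.39, edgeR adjusted p = 0.0992). Cebpb and Klf15 were both higher in the second knockout-labelled library, the one with 97840 CPM of hepatocyte markers. Without that library their log2 fold changes were 0.36 and 0.76 (edgeR adjusted p = 0.497 and 0.299), and without the first knockout-labelled one they were 1.31 and 1.60 (edgeR adjusted p = 0.0462 and 0.0363), past the threshold.

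Among the commitment factors, Ebf1, a regulator shared with B lymphocytes, was at 67.0 and 71.5 CPM against 8.62 and 13.7 (log2 fold change 2.63, SE 0.36, edgeR adjusted p = 0.0226). Zfp423, a factor of committed preadipocytes that also restrains the thermogenic programme, was at 58.4 and 29.1 CPM against 8.71 and 8.08 (log2 fold change 2.38, SE 0.46, edgeR adjusted p = 0.0387). The wild-type libraries were close to each other here and the spread lay in the knockout-labelled ones. With libraries scaled by their totals alone Zfp423 was just short of a call, at 2.12 (edgeR adjusted p = 0.0591). Ebf2, a factor of brown and beige precursors, had few reads, at 5.60 and 9.02 CPM against 0.67 and 1.66. Its log2 fold change of 2.64 was as large as that of Ebf1, but with an SE of 0.73 it was not called (edgeR adjusted p = 0.0788).

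**Figure D3:**
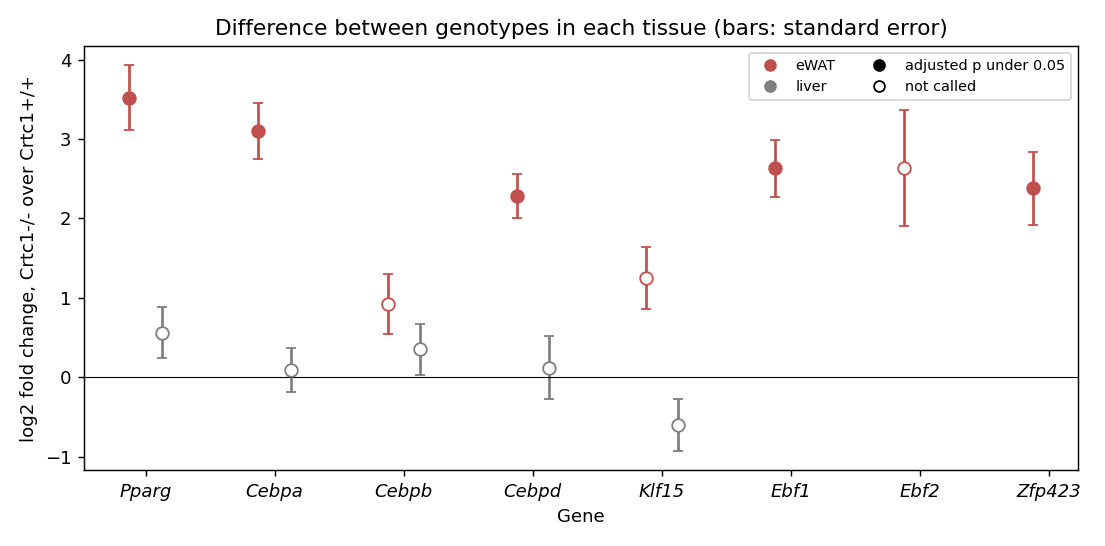
Log2 fold change (labelled Crtc1-/- over Crtc1+/+) with its standard error for each gene in eWAT and liver, filled where the adjusted p was under 0.05. The eWAT values run from 0.92 for Cebpb to 3.52 for Pparg with 5 of 8 called, and the 5 liver values lie between -0.60 and 0.56 with none called.

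Markers of cell types moved with these differences. In eWAT, 8 of 10 adipocyte markers and 10 of 10 endothelial markers were called higher in the knockout-labelled libraries, and 16 of 16 epididymis markers were called lower. Of all 15391 genes tested in eWAT 5130 had an unadjusted p under 0.05 by edgeR and 6067 by DESeq2. Of 10 macrophage markers 3 were called higher by edgeR, with 8 at an unadjusted p under 0.05, and 7 by DESeq2. Of 10 preadipocyte and fibroblast markers 1 was called in each direction. By edgeR none of 5 mesothelial markers was called, with 3 at an unadjusted p under 0.05, where DESeq2 called 2 higher and 1 lower. Of 12 hepatocyte markers edgeR called none, with 0 at an unadjusted p under 0.05, and DESeq2 called 1. The summed level of the endothelial markers was 4546 and 2396 CPM against 384 and 383. The macrophage sum was 1437 and 603 CPM against 395 and 202, and that of preadipocytes and fibroblasts was 5812 and 1669 against 3382 and 2372. The part of these cell types in the rise of the 5 factors was not tested, and in bulk tissue fewer cells of a type and less RNA per cell cannot be told apart. With the 16 epididymis genes removed, and without the second knockout-labelled library, the same 5 genes were called. Leaving out either wild-type library ended these calls by edgeR. Over 13 alternatives the log2 fold change ran from 3.16 to 3.95 for Pparg and from 1.80 to 2.77 for Zfp423. DESeq2 on all 4 libraries called 7 of the 8. The same 7 had an unadjusted p under 0.05 there, beside the 6067 of all genes given above.

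The count of Cebpd was not a whole number in any of the 8 libraries, while the counts of the other members were whole in all of them. Its fraction was completed in each library by that of Spidr, a DNA repair scaffold gene on the minus strand, so that both counts together came to a whole number. In the GENCODE annotation of GRCm38 the 3′ ends of the genes overlap, with Cebpd at chr16:15887286-15891031 and Spidr at chr16:15889224-16146851. Spidr had 51.5 to 83.9 estimated counts in the eWAT libraries against 338 to 1512 for Cebpd. No stretch of 50 bases in the transcripts of any of the 8 genes occurred in a transcript of another gene.

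Each factor was also divided by the geometric mean of the adipocyte genes Adipoq, the adiponectin gene, and Plin1, which coats the lipid droplet. Both genes are on the list of PPARγ and C/EBPα targets described below. The ratio is therefore not a measure of fat cell content that is independent of the factors. This pair stood at 976.0 and 562.7 CPM in knockout-labelled eWAT and at 32.5 and 98.8 CPM in wild-type eWAT. Adipoq was itself called higher in the knockout-labelled libraries (log2 fold change 3.65, SE 0.60, edgeR adjusted p = 0.0287), and Plin1 had a log2 fold change of 3.38 (SE 0.86, edgeR adjusted p = 0.0669).

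Pparg came to 26.0% and 33.4% of the pair in the knockout-labelled libraries and to 44.6% and 24.4% in the wild-type ones. The groups overlapped, and the log2 difference was -0.21 (SE 1.15, edgeR adjusted p = 0.865). Cebpa came to 87.3% and 133.3% of the pair against 283.4% and 96.4%, which overlapped as well (log2 difference -0.78, SE 1.25, edgeR adjusted p = 0.554). With standard errors above 1 log2 unit, these ratios place a genotype difference of either gene only loosely.

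Relative to the pair the other factors lay lower in the knockout-labelled libraries. Cebpb came to 7.44% and 24.2% of the pair against 178.8% and 53.4%, and was the 1 member called (log2 difference -2.87, SE 1.26, edgeR adjusted p = 0.0309). Klf15 came to 5.14% and 15.6% against 76.4% and 33.4% (log2 difference -2.41, edgeR adjusted p = 0.0571). On this scale 80.3% of all genes tested were called lower, and the median over all genes was -3.92 against -1.31 over the 8 members, so the call of Cebpb does not set it apart. Cebpd at 8.51% and 17.2% against 59.8% and 17.7%, Zfp423 at 5.99% and 5.18% against 26.8% and 8.19%, Ebf1 at 6.87% and 12.7% against 26.5% and 13.9%, and Ebf2 at 0.57% and 1.60% against 2.07% and 1.68% had log2 differences between -1.64 and -0.78, none of them called. The groups of these 4 genes, and of Cebpb and Klf15, did not overlap and lay lower in the knockout-labelled libraries, as did those of 91.3% of all genes. The ratio rests on a pair that differed between the wild-type libraries: without the first wild-type library, Pparg and Cebpa had log2 differences of 0.28 and 0.19, and Cebpb was no longer called. Without either knockout-labelled library no member was called, and without the second wild-type library 4 were, where 14801 of all genes were called.

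**Figure D4:**
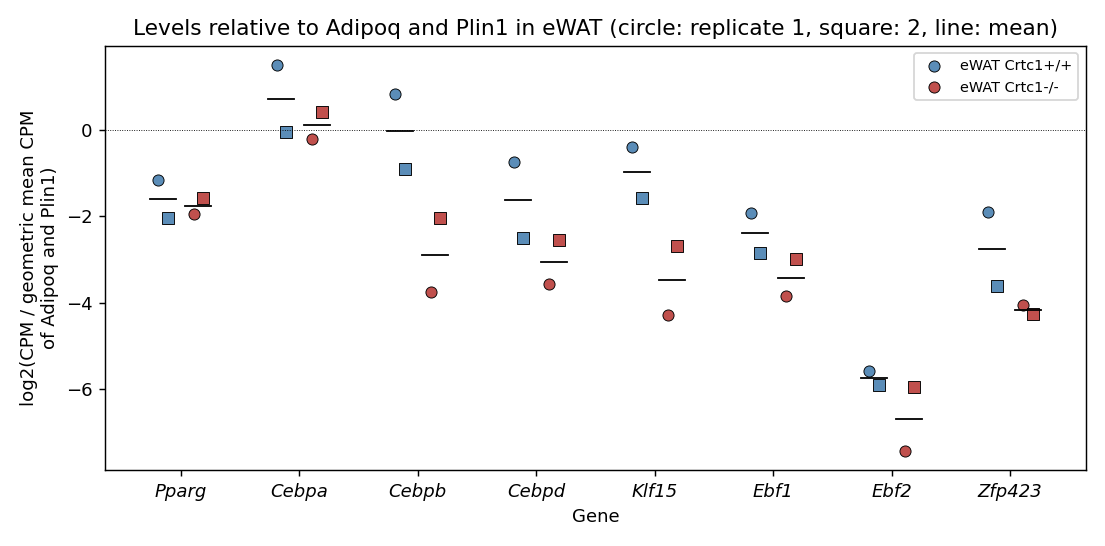
Log2 ratio of each gene's CPM to the geometric mean CPM of Adipoq and Plin1 in the 4 eWAT libraries, with the mean of each genotype as a line. The ratios of Pparg and Cebpa overlap between the genotypes, and those of the other 6 genes lie lower in the knockout-labelled libraries.

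In liver none of the factors was called. Of the 8 genes 5 had enough reads to be tested, and of all 11707 genes tested 10 were called, 0.0854%. No member had an unadjusted p under 0.05, against 2029 of all genes, and DESeq2 called none of the members either. Cebpa, which keeps hepatocytes differentiated, was at 551.8 and 399.2 CPM in the knockout-labelled libraries and at 515.7 and 378.8 CPM in the wild-type ones (log2 fold change 0.09, SE 0.28, edgeR adjusted p = 0.896). Cebpb was at 67.7 and 124.2 CPM against 68.7 and 81.5, and Klf15 at 82.1 and 70.6 against 78.0 and 153.1, with log2 fold changes of 0.35 (SE 0.32) and -0.60 (SE 0.33). Without the second wild-type library the Klf15 value was -0.04.

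Pparg, at 10.2 and 7.0 CPM against 6.42 and 5.30 in liver, was the 1 member whose groups did not overlap (log2 fold change 0.56, SE 0.32, edgeR adjusted p = 0.383). Groups did not overlap in this direction for 25.8% of all liver genes. Cebpd was at 6.08 and 14.2 CPM against 7.90 and 10.7 (log2 fold change 0.12, SE 0.40). The signs for Cebpa, Cebpb and Cebpd turned when single libraries were left out. Ebf1 and Ebf2 had no count in the wild-type livers and at most 0.12 CPM in the others, and Zfp423 lay between 0.10 and 0.47 CPM. At this depth 3 counts correspond to 0.152 to 0.181 CPM, so a genotype difference of these 3 genes in liver is poorly placed. With no expression filter, or in 1 fit of all 8 libraries, all 8 members were tested in liver and none was called.

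The genotype difference of Pparg and of Cebpa was larger in eWAT than in liver. In 1 fit of all 8 libraries the difference between the tissues was 2.87 on the log2 scale for Pparg (SE 0.45, edgeR adjusted p = 0.0175) and 2.92 for Cebpa (SE 0.52, edgeR adjusted p = 0.0238). Of 15587 genes 6.94% were called for this interaction and 3.78% in this direction. With the replicate number as a block, Pparg and Cebpa were still called and Cebpd was called as well, at 2.10 (edgeR adjusted p = 0.0449). Without the block, Cebpd at 2.09 (edgeR adjusted p = 0.0718), Klf15 at 1.80 (0.132) and Cebpb at 0.52 (0.634) were not called, and for Ebf1, Ebf2 and Zfp423 the liver counts were too near 0 to place the difference. Leaving out either liver library of either genotype, or the first wild-type eWAT library, ended both calls, with values between 2.56 and 3.19, and without the second wild-type eWAT library Cebpa alone was lost.

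Tissues were compared within a genotype, each pair on its own TMM scale. Between the wild-type tissues 6 of the 8 genes were called, 3 of them in each direction, where 59.8% of 15034 genes were (36.7% higher in eWAT and 23.1% lower), and the median of all genes was 0.48. The liver factors were lower in eWAT: Cebpa had a log2 fold change of -3.56 (SE 0.33, edgeR adjusted p = 6.32e-04), Klf15 of -3.30 (SE 0.40, edgeR adjusted p = 0.00148) and Cebpb of -1.74 (SE 0.22, edgeR adjusted p = 0.00164). The commitment factors were higher in eWAT. Against a floor of 3 counts per liver library, Ebf1 was at least 29.1-fold and Ebf2 at least 3.04-fold higher, and Zfp423 was 10.98-fold higher. By limma on FPKM neither Ebf2 nor Zfp423 was called between these tissues. Pparg, known as the fat-selective factor of the group, had a log2 fold change of 0.42 (SE 0.35, edgeR adjusted p = 0.339), and Cebpd one of -0.31 (edgeR adjusted p = 0.385) that became 1.18 and was called (edgeR adjusted p = 0.0101) when libraries were scaled by their totals alone, a scaling that moved the median of all genes to 1.96. Under it Pparg was called too, at 1.90 (edgeR adjusted p = 0.00358), and Cebpb, at -0.25, was no longer called (edgeR adjusted p = 0.325), so the calls of these 3 genes between the wild-type tissues depended on the scaling. These wild-type eWAT libraries are the ones that hold the epididymis markers, whose part in the tissue differences was not tested.

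Between the tissues of knockout-labelled mice, 4 of the 8 genes were called, all higher in eWAT, where 18.5% of 13458 genes were called and 16.2% were called higher. Pparg was higher in eWAT with a log2 fold change of 3.39 (SE 0.38, edgeR adjusted p = 0.010). Ebf1 had 2250 counts over both eWAT libraries and 3 over both livers, a ratio of 340.7 after scaling, with an exact 95% interval of 116.4 to 1653.6. Ebf2 had 232 counts against 1, a ratio of 105.4 with an interval of 18.7 to 4181. These intervals cover counting error only. Zfp423 was 62.4-fold higher in eWAT. Cebpa (-0.53), Cebpb (-1.13) and Klf15 (-1.41) had negative values and Cebpd a positive one (1.88), with adjusted p values from edgeR between 0.0531 and 0.434. Which genes were called changed without the second eWAT library, the one with hepatocyte markers, and no call was left without either liver library. Over 13 alternatives the log2 fold change ran from 3.11 to 4.53 for Pparg and from 2.41 to 7.32 for Zfp423. For Klf15 it ran from -2.02 to -0.36.

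The rest of the adipogenic network was described by lists of genes. As background, 6.65% of all 15391 eWAT genes were called higher and their median was -0.05. An unadjusted p under 0.05 was reached by 5130 of them with edgeR and by 6067 with DESeq2. Among 6 PPAR and RXR receptors 3 were called higher, with a median log2 fold change of 2.17. Beside Pparg these were its DNA-binding partners Rxrg, at 24.0 and 11.8 CPM against 1.44 and 1.5 (log2 fold change 3.60, SE 0.56), and Rxra, at 324.8 and 451.1 CPM against 82.1 and 73.1 (log2 fold change 2.32, SE 0.34). Between the wild-type tissues both were lower in eWAT than in liver (log2 fold change -3.69 for Rxrg and -3.75 for Rxra). Rxra was higher in the second knockout-labelled library, the one with hepatocyte markers, whose part in these rises was not tested. None of 13 PPARγ co-regulators was called by edgeR, with 4 at an unadjusted p under 0.05, and their median was -0.11. DESeq2 called 1 of them higher and 3 lower. Among the most abundant of them, the co-repressor gene Ncor1 had a log2 fold change of 0.55 (SE 0.36).

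In the C/EBP family 2 of 5 tested genes were called, the members Cebpa and Cebpd, with a median of 0.92. The dimer partner Cebpg (0.68, SE 0.33) and the stress factor Ddit3 (0.78, SE 0.37) were not called. Among 6 genes of the EBF and ZFP423 group 2 were called, Ebf1 and Zfp423, while their relatives Ebf3 (2.20, SE 0.55) and Zfp521, an antagonist of EBF1 (1.16, SE 0.52), were not (edgeR adjusted p = 0.0646 and 0.192). Of 9 KLF factors with roles in adipogenesis 2 were called higher by edgeR, with 7 at an unadjusted p under 0.05, and 7 by DESeq2. These were Klf2, an endothelial factor that holds back Pparg in precursors, at 345.9 and 199.2 CPM against 38.3 and 20.2 (log2 fold change 3.22, SE 0.51), and Klf13, at 137.5 and 158.7 CPM against 49.1 and 48.3 (log2 fold change 1.61, SE 0.26). Klf2 moved with the endothelial markers, and their part in its rise was not tested.

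Other activators of adipogenesis had 2 of 9 genes called higher and 1 lower, and restrainers had 2 of 14 higher and 1 lower. The sterol-sensing receptor gene Nr1h3 rose (log2 fold change 3.41, SE 0.37), as did Stat5b, a mediator of growth hormone signals (1.54, SE 0.26). Both were lower in wild-type eWAT than in wild-type liver (log2 fold change -4.35 and -1.06), and the part of hepatocyte RNA in their rise was not tested. Egr2, an early factor of the adipogenic cascade, fell from 94.3 and 203.7 CPM in wild-type eWAT to 3.35 and 1.39 CPM (log2 fold change -5.96, SE 0.71). Of the restrainers Gata3, a factor that keeps preadipocytes from maturing, fell from 33.7 and 44.5 CPM to 0.82 and 1.04 (log2 fold change -5.39, SE 0.43), while Klf2 and Foxo1 (1.46, SE 0.29) rose. Foxo1, at an edgeR adjusted p of 0.0419, was called in 6 of 13 alternative settings, Stat5b in 7 and Klf13 in 8. Egr2 and Gata3 moved in the direction of the epididymis markers, with which their link was not tested.

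Of 24 adipocyte genes that PPARγ and C/EBPα are known to activate 15 were called higher and none lower, with a median log2 fold change of 3.29. The largest were Angptl4, an inhibitor of lipoprotein lipase induced by fasting (4.89, SE 0.66), and Pck1, the enzyme of glyceroneogenesis and gluconeogenesis (4.63, SE 0.69). The glycerol channel gene Aqp7 rose by 4.38 (SE 0.34) and Fabp4, the fatty acid carrier of adipocytes, by 4.14 (SE 0.82), both on the log2 scale. Fabp4 was at 18207 and 9582 CPM against 499 and 1079. Between the wild-type tissues Angptl4 and Pck1 were lower in eWAT than in liver (log2 fold change -2.43 and -4.62), while Aqp7 and Fabp4 were higher (4.31 and 6.43). The part of hepatocyte RNA in the rises of Angptl4 and Pck1 was not tested. This list shares genes with the adipocyte markers, so the 2 are not separate observations. In liver 1 of 18 tested genes of the list was called, Lpl, which releases fatty acids from lipoproteins, with a log2 fold change of 2.27 (SE 0.26). By limma, or in 1 fit of all 8 libraries, no liver gene was called. In the main fit edgeR called no gene of the other network lists. At an unadjusted p under 0.05 these held 0 receptors, 2 co-regulators, 1 gene of the C/EBP family, 4 KLF factors, 3 other activators and 3 restrainers. DESeq2 called 3 of the 18 targets and 1 gene each among the co-regulators, the KLF factors and the other activators, all of them higher.

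**Figure D5:**
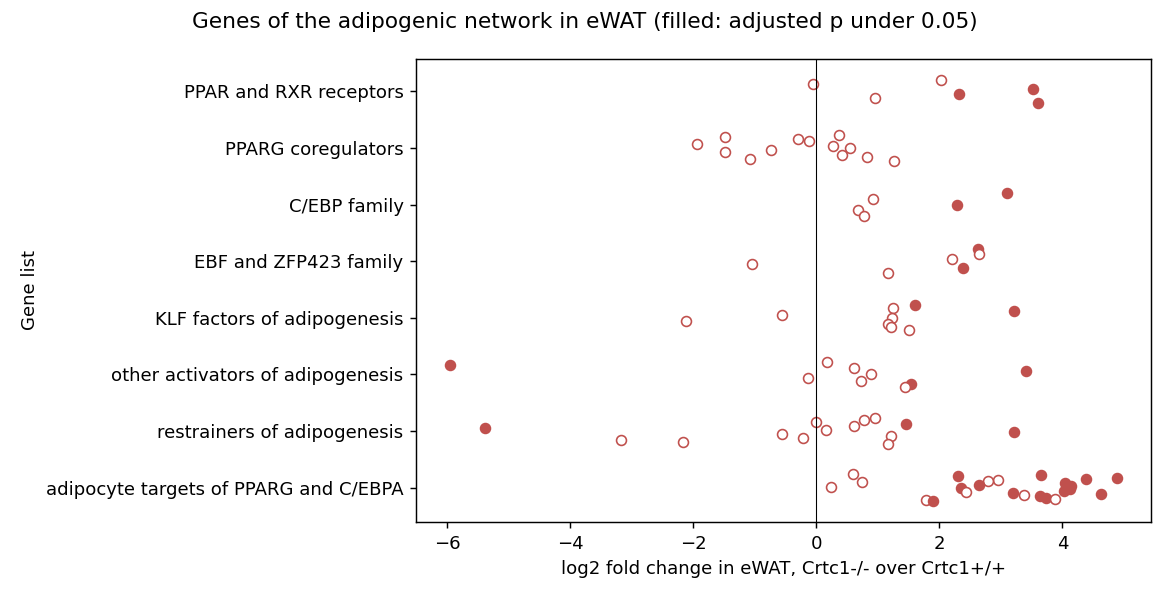
Log2 fold change in eWAT (labelled Crtc1-/- over Crtc1+/+) of each tested gene of 8 lists of the adipogenic network, filled where the adjusted p was under 0.05. Targets of PPARγ and C/EBPα lie to the right with 15 of 24 called and a median of 3.29, and the co-regulators scatter about 0 with none called.

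Finally each factor was matched to the genes with the most similar profile over the 8 libraries, by the root mean square (RMS) difference of log2 CPM after removing each gene's mean, among 11017 genes. The points share 2 tissues and the eWAT libraries described above, so a small distance says only that levels ran in parallel. Nearest to Pparg were Parvb, Ctla2b and Pla2g16, a phospholipase gene of adipocytes, at 0.25 to 0.28 log2 units. Nearest to Cebpa were Helz2 (0.22), Bst2 and 1600014C10Rik, and among the genes nearest to Cebpd were Adarb1 and Slc43a3. Cebpb ran with Coa6 (0.17), Sh2d4a and the respiratory chain gene Uqcrb, and Klf15 with Pid1 and the ketone body enzyme gene Acat1 (both 0.18) and As3mt. Ebf1 was nearest to Cav1, the caveolin gene of adipocytes and endothelium (0.28), Apcdd1 and Nat8l. Ebf2 was nearest to Txnip (0.46), the endothelial gene Emcn and Chst12, and Dpep1 and Svep1 were among the nearest to Zfp423.

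Among the members themselves, Cebpb and Klf15 had the most similar profiles (0.66), followed by Cebpa and Klf15 (0.85), Pparg and Cebpd (0.90) and Ebf2 and Zfp423 (0.90). Klf15 and Ebf1 were the least similar pair (4.69).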

How the data were processed

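All 8 RNA-seq libraries were used, 2 for each tissue (liver or eWAT) and labelled genotype (Crtc1-/- or Crtc1+/+). The authors deposited estimated counts per gene, not normalized, and FPKM for the same 19348 genes. The submitters' processing notes name HISAT, Bowtie2 and the build GRCm38.p6, with no versions, and the counting tool and annotation are not given in the sources used here. Whether the counting used strand is likewise not given, so reads of Cebpd and the antisense Spidr cannot be told apart where the genes overlap.

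Counts were rounded to whole numbers. For each comparison edgeR 4.0.16 (R 4.3.3) dropped weakly expressed genes (filterByExpr), applied TMM factors and fitted its quasi-likelihood model. A gene was called where its p, adjusted by Benjamini and Hochberg's method across the whole table, was under 0.05. For ratios, the effective library size was the geometric mean of the Adipoq and Plin1 counts. Each SE is the log2 fold change over the square root of F. The floor for a group was 3 counts per library, which covers counting error only. The designs were also run on simulated counts. With few genes changed among many, the adjusted threshold missed the planted changes between genotypes in eWAT and between the knockout-labelled tissues. A gene not called in these comparisons may therefore still differ. In the eWAT simulation the study's threshold found 51.5% of the 200 planted changes and made 135 false calls. With 2 against 2 libraries an exact permutation test cannot give a p under 0.333, and replicates of a group differed by far more than sampling noise (chi-square per degree of freedom 47.5 to 448).

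Alternatives were RLE scaling, library-size scaling, DESeq2 1.42.0, no expression filter, limma 3.58.1 on quantile-normalized log2(FPKM + 1) and log2(FPKM + 0.1), removal of the epididymis genes, a joint fit of the 8 libraries, a block for the replicate number, omission of each library, and for ratios Adipoq alone, Plin1 alone and 10 adipocyte markers. Genes outside the 8 members were named as the up to 4 with the largest change among those called in a list, the 2 most abundant where none was, the 3 nearest profiles, and leading markers. Where the called genes of a list were all members, the most abundant others were named, and Lpl was named after its value was seen. A few genes that this rule names are not reported here. The members and lists were chosen with earlier results of these data known. Gene positions came from RefSeq (GRCm38.p6) and GENCODE vM21, promoters from RefSeq. Figures were drawn with matplotlib.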

Additional observations from a re-analysis of the deposited data

Results flagged for a closer look

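The genotype difference of Pparg was larger in eWAT than in liver, by 2.87 on the log2 scale, and that of Cebpa by 2.92, in the test of that difference over all 8 libraries (edgeR adjusted p = 0.0175 and 0.0238). Over 16 alternatives the values ran from 2.56 to 3.27 for Pparg, with adjusted p between 3.75e-05 and 0.0837, and from 2.66 to 3.19 for Cebpa, with adjusted p between 1.26e-07 and 0.113. Pparg was past the threshold in 11 of them and Cebpa in 10. The eWAT libraries of the genotypes also differed in summed adipocyte markers (CPM by library size alone), 23578 and 11982 CPM against 1665 and 2377, while in liver these stayed between 37.8 and 80.8 CPM, and their part in the difference was not tested.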

How the results depend on the processing

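Depth limits Ebf1, Ebf2 and Zfp423 in liver and Ebf2 in wild-type eWAT, and the spread between 2 libraries limits the rest. In eWAT none of the members and none of the network genes named with a log2 fold change turned sign between genotypes in any alternative run, marker genes and nearest profiles were not run, and the cause of the changes below was not tested. In eWAT the genes called numbered 1875, 4620 with DESeq2, 3861 with all 8 libraries in 1 fit and 0 with the replicate block, and 0 to 3073 with 1 library left out. The members called went from 5 to 0 with the block (all genes at an unadjusted p under 0.05 numbered 5418) and to 0 to 7 with 1 library left out, and those past the study's threshold to 2 to 7. In liver 10 genes were called, against 311 with DESeq2, 0 with limma at either pseudocount, 0 with all 8 libraries, 301 with no filter, 82 with the block and 1 to 1506 with 1 left out. Between wild-type tissues the count of 8985 became 5262 to 9534 with 1 left out. Between tissues labelled Crtc1-/- 2485 genes became 5715 with library-size scaling, 6510 with DESeq2, 958 with limma at a pseudocount of 1, 4330 with all 8 libraries, 1296 with the block and 0 to 6512 with 1 left out, and 4 members became 7 with DESeq2 and 0 to 7 with 1 left out. For the interaction 1081 genes became 705 with library-size scaling, 2056 with DESeq2, 2533 and 2390 with limma at 1 and 0.1, 1746 with the block and 0 to 2261 with 1 left out, and 2 members became 4 with DESeq2, 5 and 6 with limma and 0 to 4 with 1 left out. Relative to Adipoq and Plin1 12367 genes became 6294 with Plin1 alone, 805 with the block and 0 to 14801 with 1 left out, and 1 member became 2 with Adipoq, 0 with Plin1, 3 with 10 markers, 0 with the block and 0 to 4 with 1 left out. Signs turned in liver with 1 library left out for Cebpa (-0.15 to 0.32), Cebpb (-0.16 at the lowest) and Cebpd (-0.62 to 0.62). Between wild-type tissues they turned for Cebpd (1.18, library-size scaling) and Ebf2 (-0.08 and -0.30, limma), and between tissues labelled Crtc1-/- for Cebpa (0.59 with library-size scaling, 0.38 with limma at either pseudocount). In the interaction they turned for Ebf1 (2.24 and 2.91, limma) and Ebf2 (1.18 with DESeq2, 0.73 and 2.21 with limma, -1.31 to 2.59 with 1 left out), and relative to the pair with 1 left out for Pparg (-0.59 to 0.28) and Cebpa (-1.36 to 0.19). Samples with the same number share only that number: their deviations correlated at -0.33 between the eWAT groups, 0.07 between the liver groups, 0.27 between the wild-type tissues and 0.01 between the knockout-labelled tissues, so the pairing was not taken as part of the design, although tissues may share mice. With the block 6 members were called between wild-type tissues, 4 between knockout-labelled tissues and 3 for the interaction.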
